A study of Mus musculus with 4 samples.

Results

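Bnip3, Bnip3l, Ak4 and Higd1a are nuclear genes for mitochondrial proteins that are known to be induced when oxygen falls. They were followed here in primary mouse embryonic fibroblasts through every array probe set that the platform annotation gives them, 11 of 22690 probe sets, or 4 of 12394 genes. The genes were chosen by their signals on these same arrays, that is, by their rise in hypoxia, so the hypoxia values below describe them and test nothing. Bnip3 has 1 probe set, Bnip3l 3, Ak4 4 and Higd1a 3. Those of Bnip3l also match its pseudogene Bnip3l-ps, so a signal given for Bnip3l cannot be split between them.

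Expression was measured on Affymetrix arrays in fibroblasts grown from E14.5 embryos. The cells were either wild type or tri-CH1, a genotype in which the CH1 domain is deleted from 2 alleles of p300 and from 1 allele of CBP, leaving an intact domain in the other CBP allele. p300 and CBP are related coactivators, and their CH1 domain is a docking site for HIF-1α, the transcription factor that accumulates when oxygen is low. Subconfluent cultures of each genotype were moved into fresh medium that had been equilibrated with the gas used, and spent 6 h in normoxia (21% oxygen) or in hypoxia (0.1% oxygen); temperature (37 °C) and carbon dioxide (5%) were the same in all. Each of these 4 groups has 1 array, and the labels do not say how many embryos or cultures stand behind it, so there is no replicate error for any value and no difference was tested. Signals under 200 were raised to 200 before a ratio was taken. A gene is said to have risen, fallen or been called at 2-fold or more with a signal of 500 or more on the brighter array. Smaller differences are given by their values, and "at least" before a fold means that its dimmer signal lay under 200.

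The proteins do different things in the mitochondrion. Bnip3 and Bnip3l (also called Nix) are related outer-membrane proteins of the BH3-only type that bind LC3 and GABARAP proteins and so mark mitochondria for removal by autophagy. Bnip3l is best known for clearing mitochondria from maturing red cells. Ak4 is the adenylate kinase of the mitochondrial matrix that has little enzyme activity of its own, and Higd1a is a small inner-membrane protein that associates with cytochrome c oxidase. HIF recognises a short core, ACGTG or GCGTG, in the regulatory DNA of its targets.

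The sequences before the start sites are shown because the 4 genes move together with oxygen and because HIF is the factor whose coactivator is mutated. The RefSeq promoter table for GRCm38.p6 matched 3 of the 4 genes, with 1 start site each for Bnip3 and Higd1a and 4 for Ak4. The entry for Bnip3l was not matched. Bnip3 lies on chromosome 7 at 138890836 to 138909506, Higd1a on chromosome 9 at 121848557 to 121857796, Ak4 on chromosome 4 at 101416478 to 101467771 and Bnip3l on chromosome 14 at 66985238 to 67008877. The pseudogene Bnip3l-ps lies on chromosome 12 at 18216547 to 18217776. The 4 Ak4 start sites, the first of them at 101419289, lie inside the span given for that gene. No window for Ak4 precedes the start of the span at 101416478, so "first" below means the first of these 4. The 250 bases that precede the start site are printed 5′ to 3′ on the strand of the gene. Capitals mark each match to ACGTG or GCGTG on either strand, which reads CACGT or CACGC when it lies on the opposite strand.
Bnip3, chr7:138909507-138909756, minus strand: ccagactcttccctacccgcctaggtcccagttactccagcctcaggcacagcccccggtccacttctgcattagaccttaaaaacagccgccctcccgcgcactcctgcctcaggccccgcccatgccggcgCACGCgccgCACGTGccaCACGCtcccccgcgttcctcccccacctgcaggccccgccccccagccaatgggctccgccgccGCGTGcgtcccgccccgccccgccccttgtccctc
Higd1a, chr9:121857797-121858046, minus strand: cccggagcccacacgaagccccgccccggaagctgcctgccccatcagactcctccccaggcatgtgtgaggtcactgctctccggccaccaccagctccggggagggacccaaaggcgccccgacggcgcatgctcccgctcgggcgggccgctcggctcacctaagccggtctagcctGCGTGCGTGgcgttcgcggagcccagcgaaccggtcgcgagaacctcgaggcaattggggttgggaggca
Ak4, its first start site, chr4:101419039-101419288, plus strand: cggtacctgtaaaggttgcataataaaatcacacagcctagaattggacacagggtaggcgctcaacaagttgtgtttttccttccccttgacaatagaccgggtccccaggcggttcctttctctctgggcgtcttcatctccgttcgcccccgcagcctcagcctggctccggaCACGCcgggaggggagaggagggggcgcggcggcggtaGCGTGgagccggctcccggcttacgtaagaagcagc
Ak4, 30 bases of the window before its most downstream start site, chr4:101419477-101419506, plus strand: tcccactctgccCACGTGcggggaccggca

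The Bnip3 window held 5 matches. A pair of them, starting 108 and 107 bases before the start site, overlap in the palindrome CACGTG, which reads as ACGTG on both strands and is therefore counted as 2 matches. The other Bnip3 matches were to GCGTG and began 117, 99 and 35 bases before the start. Higd1a had 2 matches to GCGTG, 70 and 66 bases before the start, which share a base. The first Ak4 window also had 2 matches to GCGTG, at 74 and 36 bases. The palindrome CACGTG returned at Ak4 in the window of the most downstream start site, from 214 bases before it. Over all 32851 windows of this length in the table, 38.6% held ACGTG or GCGTG, 16.6% held ACGTG and 28.2% held GCGTG. At least 2 matches were found in 16.7% of windows and at least 5 in 1.01%. These matches describe letters and show no binding.

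Of 11 fibroblast markers on the array, 8 had a signal of 500 or more on all 4 arrays, among them Col1a1, Col1a2, Vim and Fn1, and the summed signal of the list, to which these bright genes add most, ran from 130189 to 137390. Single markers of the list differed between the arrays. Thy1 was at 13148 and 12389 in wild-type cells and 3837 and 3274 in tri-CH1 cells, in normoxia and hypoxia. Lum was at 355 and 419 against 1561.5 and 2684, and Pdgfrb at 1337 and 517.5 against 689.6 and 486. The epithelial markers Epcam and Cdh1, the endothelial markers Pecam1 and Cdh5 and the leukocyte marker Ptprc were under 200 on every array. Of the 6 blood and macrophage markers, Csf1r and Lyz2 reached 500 on all arrays, and the list summed to between 1906 and 2392. The 5 endothelial markers summed to between 462 and 573, and none reached 500. Kdr, the brightest of them, read from 302 to 390.5, and the other 4 were under 200 on every array. The 7 epithelial markers summed to 1276.5 in wild-type normoxia and 1542 in tri-CH1 normoxia, and to 5085 and 3571 in hypoxia. Of these, Krt19 gave 145 and 423 in normoxia and 3881 and 2676 in hypoxia. Krt18 reached 500 in wild-type hypoxia only, at 588, and Krt8 in tri-CH1 normoxia only, at 502. The 5 muscle markers summed to 4124 and 3987 in wild-type cells and to 1406 and 1205 in tri-CH1 cells. Of these, Acta1 gave 3494 and 3151 against 697.5 and 376, and Myod1 and Myog stayed under 200. The 5 neural markers summed to between 1478 and 1854, and of these Nes alone reached 500. The targeted gene Crebbp, which encodes CBP, has 1 probe set, at 82.8 and 29.6 in wild-type cells and 61.3 and 87.7 in tri-CH1 cells. Where its probes lie relative to the deleted domain is not given, so it does not check the genotype labels. The factor that scaled an array to a common mean was 3.46 for wild-type normoxia and from 6.73 to 10.3 for the other arrays, and the wild-type normoxia array was of another lot than the other 3. The part of these differences in the results was not tested. In such bulk samples, fewer cells of a type and less RNA per cell cannot be told apart.

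All 4 genes rose in hypoxia in wild-type cells, and all 4 rose in tri-CH1 cells. The share of all genes that rose was 3.08% in wild-type cells and 3.21% in tri-CH1 cells, but the genes were picked for this rise, so nothing is read from the contrast. Of the 11 probe sets, 9 reached 500 and rose in each genotype, most of them reaching 500 only in hypoxia. Among all probe sets bright enough to count, 3.1% rose in wild-type cells and 3.21% in tri-CH1 cells. Nothing is read from this contrast either. The remaining 2, of Ak4 and Higd1a, never reached 500.

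**Figure D1:**
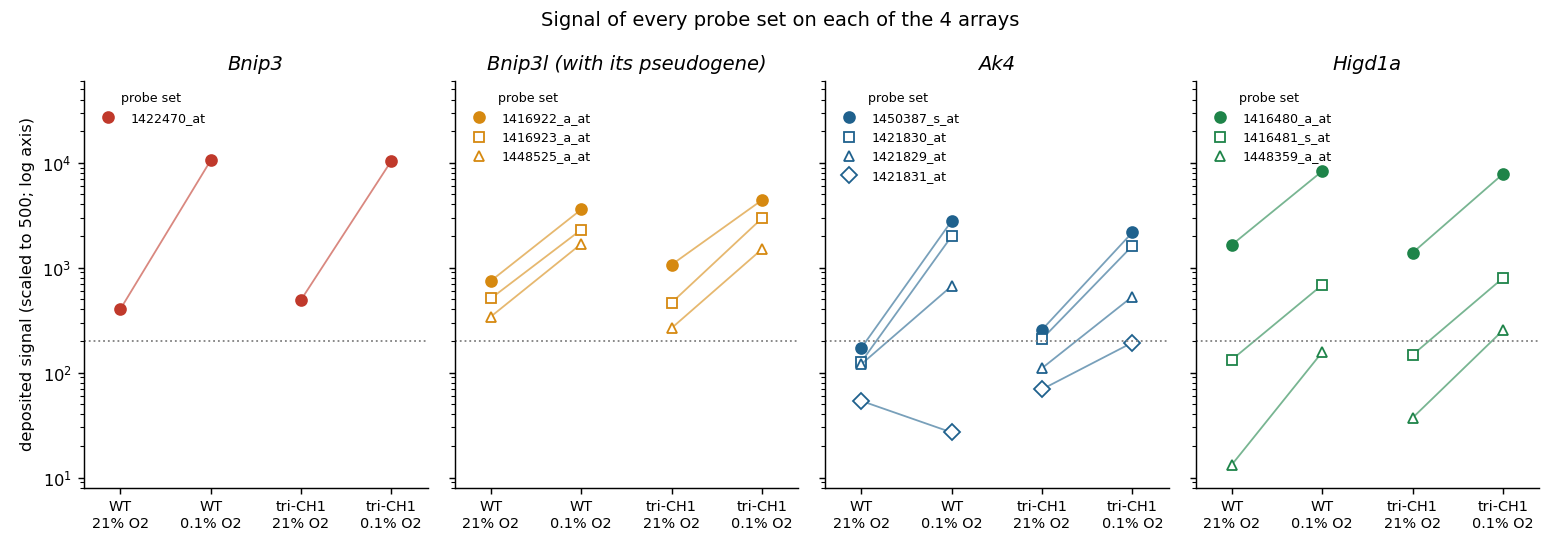
Deposited signal (log axis) of each of the 11 probe sets on the 4 arrays, wild type (WT) and tri-CH1 at 21% and 0.1% oxygen; filled symbols are the brightest probe set of a gene, lines join the arrays of a genotype and the dotted line is the floor of 200. Each probe set that reaches 500 is higher at 0.1% oxygen in both genotypes, but most of them reach 500 only there, so the choice favours this direction. The Ak4 probe set drawn as diamonds stays under 200 throughout.

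Among the mitophagy receptors, Bnip3 showed the wider swing. Its signal was 402.5 in wild-type normoxia, 10529.6 in wild-type hypoxia, 493.5 in tri-CH1 normoxia and 10422 in tri-CH1 hypoxia. The hypoxia arrays of the genotypes thus stood close together, while in normoxia the tri-CH1 signal was 1.23-fold the wild-type signal, with both under 500. Hypoxia raised Bnip3 26.2-fold in wild-type cells and 21.1-fold in tri-CH1 cells, log2 changes of 4.71 and 4.40. After the floor, Bnip3 ranked 1 of the 4646 genes that reached 500 by the log2 change averaged over the genotypes. With signals under 200 left as they were, Bnip3 ranked 5 of 4126 genes in wild-type cells and 1 of 4359 in tri-CH1 cells. The signal that Bnip3 gained with hypoxia was 10127 in wild-type cells and 9928 in tri-CH1 cells, so that the tri-CH1 gain was 98.0% of the wild-type gain. No signal of Bnip3 lay under the floor, so its own changes do not depend on it. With a single probe set, Bnip3 has no second reading on these arrays.

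Bnip3l, the relative of Bnip3, rose less and did so on each of its 3 probe sets. The brightest, 1416922_a_at, had signals of 748 and 3582 in wild-type cells and 1066.5 and 4396 in tri-CH1 cells, in normoxia and hypoxia. That is a rise of 4.79-fold in wild-type cells and 4.12-fold in tri-CH1 cells, with tri-CH1 the higher genotype at both oxygen levels by less than 2-fold. The suffix a_at marks probes that several transcripts of a gene share. Probe set 1416923_a_at went from 509 to 2299 in wild-type cells and from 463 to 2951 in tri-CH1 cells. Probe set 1448525_a_at went from 342 to 1685 in wild-type cells and from 265 to 1499 in tri-CH1 cells. Their rises were 4.52-fold and 4.93-fold in wild-type cells and 6.38-fold and 5.65-fold in tri-CH1 cells. The wild-type log2 changes of the 3 probe sets thus lay between 2.18 and 2.30, and those of tri-CH1 between 2.04 and 2.67. For comparison, the log2 changes of paired probe sets differed over 669 other genes with an SD, per probe set, of 0.26 in wild-type cells and 0.30 in tri-CH1 cells. The probe sets did not settle which genotype responded more. The brightest gave a tri-CH1 change smaller by 0.22 on the log2 scale, and the others gave changes larger by 0.50 and 0.20. The tri-CH1 gain in signal was 117%, 139% and 91.8% of the wild-type gain, in the same order.

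Ak4, the matrix adenylate kinase, was near or under 200 in normoxia and rose strongly on 3 of its 4 probe sets. The brightest, 1450387_s_at, stood at 172 in wild-type normoxia, 2795 in wild-type hypoxia, 257 in tri-CH1 normoxia and 2168.5 in tri-CH1 hypoxia. The suffix s_at marks probes that transcripts of more than 1 gene may share. The wild-type array was thus the lower in normoxia and the higher in hypoxia. The rise was at least 14.0-fold in wild-type cells and 8.45-fold in tri-CH1 cells. Probe set 1421830_at gave 127 and 1998 in wild-type cells and 209 and 1615 in tri-CH1 cells, a rise of at least 9.99-fold and of 7.72-fold. Probe set 1421829_at gave 120.4 and 669.9 in wild-type cells and 110.4 and 531 in tri-CH1 cells, at least 3.35-fold and at least 2.65-fold. Both of its normoxia signals lay under the floor, and it was the dimmest of the 3 in hypoxia.

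All 3 responding probe sets of Ak4 read lower in tri-CH1 hypoxia than in wild-type hypoxia, by 0.37, 0.31 and 0.34 on the log2 scale, none of them past 2-fold. The tri-CH1 gain in signal was 72.9%, 75.1% and 76.5% of the wild-type gain, closer together than the shares of the Bnip3l probe sets. With the arrays scaled to the same median, quantile normalized or fitted by cyclic loess, this share stayed between 69.7% and 78.6%. On the deposited signals with the floor, the log2 response of 1450387_s_at differed by -0.73, tri-CH1 minus wild type. A more negative value was found for 3.81% of 4646 genes, most of which did not rise with hypoxia. Among the 80 genes that rose in both genotypes, the lower quartile was -0.48. In size, -0.73 is under the limit of 1 used for a difference in response. It is no lower bound, since some settings gave smaller differences. The value was -0.37 with a floor of 400, -0.58 with quantile normalization, -0.70 with median scaling and -0.73 with cyclic loess. Without the floor the differences of the 3 responding probe sets were -0.94, -1.03 and -0.21, so that 1421830_at passed the limit. All its signals lay above 100, so a floor of 100 gives the same value, and cyclic loess without the floor gave -1.04. With quantile normalization and median scaling it stayed short of the limit without the floor, at -0.74 and -0.89. The SD between probe sets of a gene was 0.32 for the genotype change in hypoxia and 0.37 for the response, and neither covers variation between cultures. Averaging all 4 probe sets of Ak4 turned the genotype difference in hypoxia to 0.46 and the response difference to 0.46, with tri-CH1 the higher. That average takes in 1421831_at, which was at 53.7 and 26.9 in wild-type cells and 69.4 and 193 in tri-CH1 cells, under the floor on all 4 arrays.

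Higd1a, the cytochrome oxidase partner, rose on both of its probe sets that reached 500. Its brightest probe set, 1416480_a_at, had signals of 1653 in wild-type normoxia, 8312 in wild-type hypoxia, 1386 in tri-CH1 normoxia and 7806 in tri-CH1 hypoxia. Wild type was the higher on both pairs of arrays, by less than 2-fold. The rise was 5.03-fold in wild-type cells and 5.63-fold in tri-CH1 cells, a difference of 0.16 on the log2 scale, which lay between 0.14 and 0.31 with the other scalings of the arrays. Probe set 1416481_s_at read 133.0 and 685.5 in wild-type cells and 147.5 and 796 in tri-CH1 cells, a rise of at least 3.43-fold and at least 3.98-fold. Both of its normoxia signals lay under the floor, so these are bounds. The third, 1448359_a_at, went from 13.3 to 157 in wild-type cells and from 37.1 to 253 in tri-CH1 cells. It moved the same way but never reached 500 and is not counted. The tri-CH1 gain in signal was 96.4% of the wild-type gain on the brightest probe set and 117% on 1416481_s_at.

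**Figure D2:**
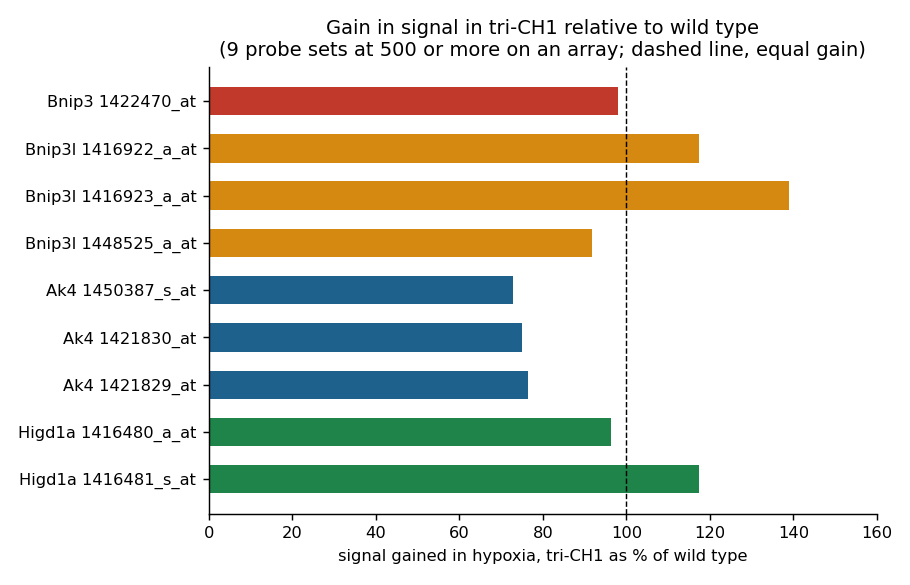
Signal gained between 21% and 0.1% oxygen in tri-CH1 cells as a percent of the gain in wild-type cells, for the 9 probe sets that reached 500 on at least 1 array; the dashed line marks an equal gain and there are no replicate arrays. The 3 Ak4 bars end between 72.9% and 76.5%, and the bars of the other genes lie between 91.8% and 139%.

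The gains can be set beside those of the 80 genes that rose in both genotypes, the 4 members among them. In all, 127 genes rose in wild-type cells and 140 in tri-CH1 cells. Those that rose in 1 genotype only are left out, so the spread of gains over all responding genes is not shown. Over the 80 genes, the median tri-CH1 gain was 93.4% of the wild-type gain, with quartiles at 63.4% and 116%. On their brightest probe sets Bnip3, at 98.0%, and Higd1a, at 96.4%, lay just above that median, and Bnip3l, at 117%, lay above the upper quartile. Its other probe sets lay above the upper quartile, at 139%, and under the median, at 91.8%. Each Ak4 value lay between the lower quartile and the median. The median difference in response of the 80 genes was -0.07 on the log2 scale, with quartiles at -0.48 and 0.16. On the brightest probe sets and with the floor, the difference was -0.31 for Bnip3, -0.22 for Bnip3l, 0.16 for Higd1a and -0.73 for Ak4. That Ak4 value lay below the lower quartile. The other responding probe sets of Ak4 gave -0.37 and -0.34 with the floor, between the quartiles, and -1.03 and -0.21 without it.

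**Figure D3:**
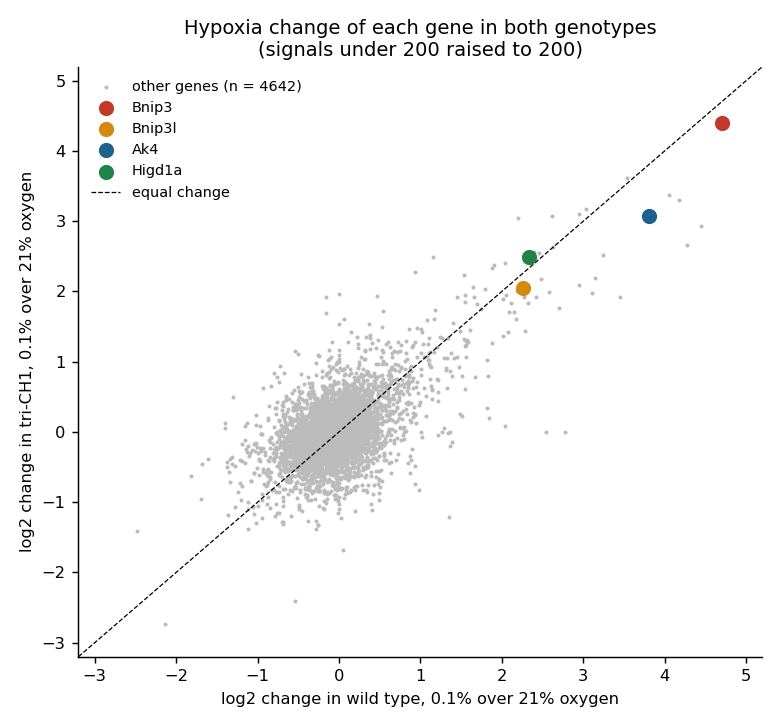
Log2 change with hypoxia in wild-type cells (horizontal) and tri-CH1 (vertical) of the 4646 genes with a signal of 500 or more on an array, 1 brightest probe set each, after signals under 200 were raised to 200; the dashed line marks equal change. Bnip3 lies at 4.71 and 4.40, Ak4 at 3.80 and 3.08 below the line, and Bnip3l and Higd1a lie near the line between 2.04 and 2.49.

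None of the 4 genes differed by 2-fold between the genotypes at the same oxygen level. In normoxia 0 of 4 were called, while 6.65% of the genes bright enough to count were, but only Bnip3l and Higd1a reached 500 on a normoxia array. Their log2 differences, tri-CH1 minus wild type, were 0.51 and -0.25 on the brightest probe sets. Bnip3 differed by 0.29. Ak4, whose wild-type signal was under the floor, differed by 0.36 with the floor and by 0.58 without it. The Ak4 value lay between 0.25 and 0.32 with the other scalings of the arrays, and was 0 with a floor of 400. Its probe set 1421830_at gave 0.07 with the floor, and 1421829_at gave -0.13 without it. In hypoxia all 4 genes were bright enough, and again 0 of 4 were called, against 7.06% of all genes. The differences were -0.01 for Bnip3, 0.30 for Bnip3l, -0.37 for Ak4 and -0.09 for Higd1a. Of the 9 probe sets that reached 500, 3 read higher and 6 lower in tri-CH1 hypoxia, from -0.37 to 0.36. The sign was shared by all probe sets of Ak4 at 500, and was mixed within Bnip3l and within Higd1a. With quantile normalization and cyclic loess the sign of Bnip3 turned, to 0.11 and 0.01. For the difference in response, tri-CH1 minus wild type, 0 of 4 genes reached the limit of 1, which 3.23% of all genes did. These comparisons share arrays with the hypoxia comparisons and are not separate evidence.

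The genes with the most similar pattern were sought among 4645 others by the Euclidean distance between log2 signals centred on their mean over the 4 arrays, with the floor of 200. On its brightest probe set, the only one used, Bnip3l had the closest neighbours. Its other probe sets differed from that one in the sign of the response, at 0.50 and 0.20 against -0.22. These neighbours therefore hold for 1416922_a_at only. Nampt, which makes nicotinamide mononucleotide for NAD synthesis, lay at a distance of 0.07, with log2 rises of 2.19 and 2.01. The malic enzyme Me2 followed at 0.19, the phosphofructokinase Pfkp at 0.23, and the hexokinase Hk1 and Fam117b at 0.31 each. Nearest to Higd1a were the glycogen synthase Gys1 at 0.17, the collagen prolyl hydroxylase subunit P4ha2 at 0.24, Fam162a at 0.28, Hk1 at 0.40 and the Myc antagonist Mxi1 at 0.42. Fam162a, itself a mitochondrial protein, rose by 2.40 in wild-type cells and 2.56 in tri-CH1 cells.

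Ak4 had looser neighbours, Krt19 and the HIF prolyl hydroxylase Egln3 at 0.53 each, Egln1 of the same family at 0.56, Ndrg1 at 0.62 and the pyruvate dehydrogenase kinase Pdk1 at 0.65. Bnip3 had none within 1 unit. Egln3 was nearest at 1.03, then Ndrg1 at 1.11, Ak4 at 1.14, the glucose transporter Slc2a3 at 1.22 and Krt19 at 1.27. Each of these rose less than Bnip3 in both genotypes after the floor. The rises in tri-CH1 cells were 3.31 for Egln3, 3.37 for Ndrg1, 2.94 for Slc2a3 and 2.66 for Krt19 on the log2 scale, against 4.40 for Bnip3. In wild-type normoxia the signals of Egln3, Slc2a3, Krt19, Pdk1 and Ak4 itself lay below 200. Their places, and all neighbours of Ak4, therefore depend on the floor. The distances rest on 4 arrays and describe these arrays only.

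Genes related to the 4 were read from 7 lists. Of their genes, 87 were on the array. In wild type 0 of the 57 bright enough to count rose and 0 fell, against 4.27% of all genes called in either direction. In tri-CH1 3 of 54 rose and 0 fell, or 5.56%, against 4.2% of all genes. With so few genes counted, nothing particular to the lists is read from either number, nor from the counts of single lists below. The 3 were Fkbp8, Bok and Foxo3, and with a floor of 400 Foxo3 alone was called, with 0.84 for Fkbp8 and 0.59 for Bok on the log2 scale. A minimum signal of 1000 also left Foxo3 alone. With the mean over all probe sets, Fkbp8 and Bok were called and Foxo3, at 0.49, was not. With plain _at probe sets only, Fkbp8 alone was called, with 0.69 for Foxo3, and Bok has no such probe set.

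The mitophagy and autophagy list holds the LC3 and GABARAP proteins that Bnip3 and Bnip3l bind, other mitophagy receptors and the core autophagy proteins. Of its 19 counted genes 0 rose in wild-type cells, against 3.08% of all genes, and 1 of 18 rose in tri-CH1 cells, against 3.21%. The median log2 changes were -0.02 and 0.00, against -0.06 and -0.04 over all genes. The largest change in wild-type cells was -0.60, of the autophagy adaptor Tax1bp1. Fkbp8, another outer-membrane receptor for LC3, was at 646.5 and 545 in wild-type cells and 340.5 and 718 in tri-CH1 cells. The tri-CH1 normoxia array was thus the lowest of the 4 and the tri-CH1 hypoxia array the highest. Its log2 change was -0.25 in wild-type cells and 1.08 in tri-CH1 cells, on its single probe set.

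Of the Bcl-2 family, the regulators of cell death to which BH3-only proteins bind, 0 of 6 counted genes rose in wild-type cells and 1 of 5 in tri-CH1 cells. The shares of all genes that rose were 3.08% and 3.21%, and the counted genes are too few to describe the family. The medians of the list were 0.07 and 0.25. Among the counted genes the survival gene Bcl2l2 had the largest change in wild-type cells, 0.70. Bak1, a pore-forming protein that did not reach 500, changed by -0.82 there. Bok, another pore-forming member of the family, was at 657 and 659.6 in wild-type cells and at 283 and 603 in tri-CH1 cells. The tri-CH1 normoxia array was again the lowest, so Bok rose by 1.09 on the log2 scale there and was lower in tri-CH1 cells in normoxia by 1.22. The BH3-only gene Pmaip1 (Noxa) was called by genotype and not by oxygen. Its signal was 569.6 and 629 in wild-type cells and 13.1 and 59.6 in tri-CH1 cells, at least 2.85-fold and at least 3.15-fold lower. Over all lists, these were the calls by genotype, 2 of 56 counted genes in normoxia and 1 of 54 in hypoxia, against 6.65% and 7.06% of all genes. A floor of 400 left 0 such calls at either oxygen level, and a minimum signal of 1000 did the same. Quantile normalization and median scaling each gave 3 in normoxia, with Fkbp8 added. Cyclic loess also gave 3 there, with Map1lc3a called higher in tri-CH1 cells.

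Of 8 other adenylate kinases listed, 3 were on the array. Ak5 did not reach 500. Ak1, of the cytosol, and Ak3, of the matrix, were counted, and 0 of 2 was called in either genotype, against 4.27% and 4.2% of all genes, too few to describe the family. Ak1 went from 1376 to 1256 in wild-type cells and from 1314 to 1170 in tri-CH1 cells, and Ak3 from 581 to 375 and from 504.5 to 501. The larger log2 change was that of Ak3 in wild-type cells, at -0.63, and it was -0.01 in tri-CH1 cells. For Higd1a, the list of its family and of cytochrome oxidase genes had 0 of 14 called in either genotype, against 4.27% and 4.2% of all genes. Its medians were -0.03 and -0.16. Higd2a, the other family member bright enough to count, changed by -0.10 and -0.25. Among the counted genes of that list the largest change was 0.59 in wild-type cells and 0.60 in tri-CH1 cells, of Lonp1, the matrix protease. Cox4i2, a cytochrome oxidase subunit that did not reach 500, changed by 0.73 and 0.61.

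Genes of mitochondrial fission and fusion had 0 of 7 called in wild-type cells and 0 of 6 in tri-CH1 cells, against 4.27% and 4.2% of all genes. Their medians were 0.01 and -0.01. Among the counted genes the largest changes were 0.32 for Yme1l1 in wild-type cells and 0.23 for Mfn1 in tri-CH1 cells. Mfn2, an outer-membrane fusion protein, did not reach 500. It went from 422 to 170 in wild-type cells, a change of -1.08 after the floor that a minimum signal of 250 would call, and changed by -0.10 in tri-CH1 cells. Adenine nucleotide and phosphate carriers and channels had 0 of 7 called in either genotype, against the same shares of all genes, with medians of 0.10 and -0.11. The outer-membrane channel Vdac1 had the largest change there, 0.68 and 0.89. Among the regulators, Hif1a and Foxo3 were counted. E2f1, which did not reach 500, would be called at a minimum signal of 250 in tri-CH1 cells, with a change of 1.10. Hif1a changed by 0.55 and 0.38. Foxo3, a forkhead factor known to activate Bnip3 in muscle, went from 453 to 879 in wild-type cells and from 366 to 1021 in tri-CH1 cells. Its log2 change was 0.96 in wild-type cells, under 2-fold (1.01 with cyclic loess), and 1.48 in tri-CH1 cells. Another probe set of Foxo3 gave 0.62 and 0.69, under 2-fold in both, and a further one was under 200 on all arrays.

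**Figure D4:**
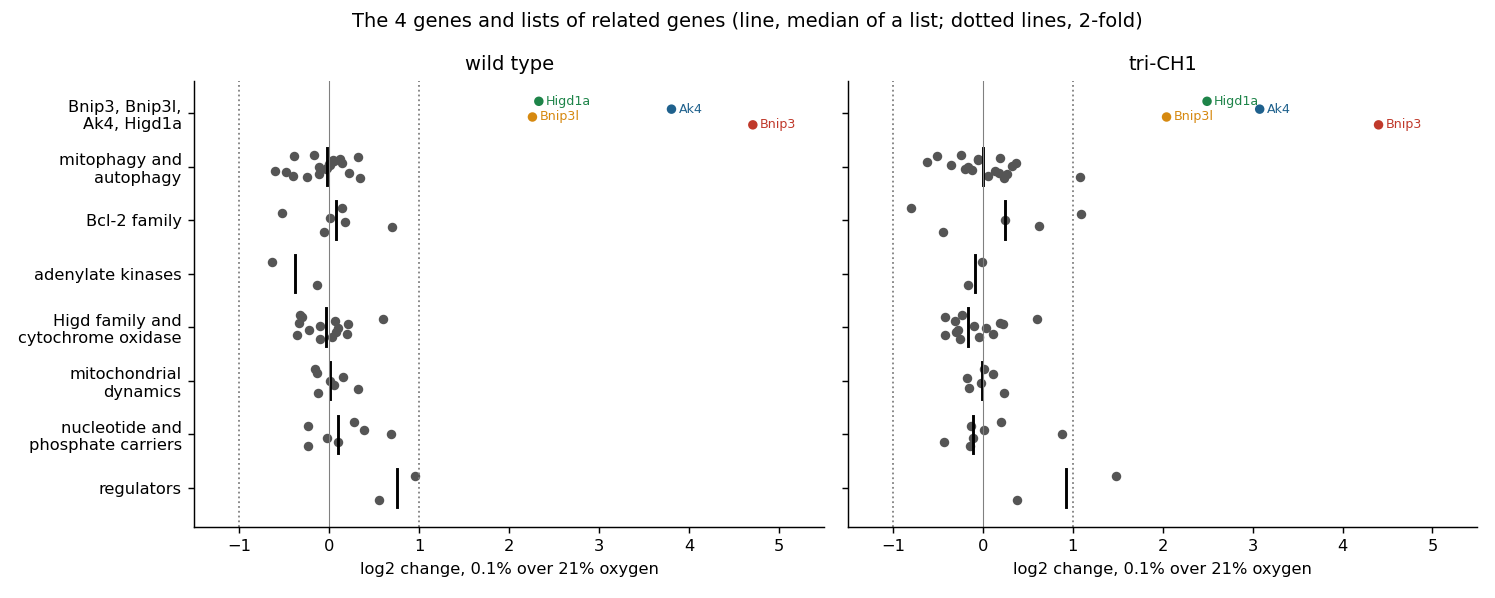
Log2 change with hypoxia in wild-type cells (left) and tri-CH1 (right) of the 4 genes and of 7 lists of related genes, each point a gene counted in that genotype; bars mark list medians and dotted lines 2-fold. The points of the lists lie between -0.79 and 1.48, and the 4 genes lie at 2.04 or higher.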

How the data were processed

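RNA of 4 samples was read on 4 Affymetrix arrays of 22690 probe sets. Per the labels, the authors used the statistical algorithm of Affymetrix, which yields a background-corrected intensity for each probe set, and multiplied each array by 1 factor to a target of 500. The deposited intensity values are linear. A software version and genome build are not given in the sources used here, and the values are read as they stand. The trimmed mean, leaving out 2% at each end, was 500.0 on every array.

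Names come from the platform annotation, where 20380 had 1 symbol, 691 several and 1555 none, and 64 were controls. The 3 probe sets of Bnip3l were kept although they also name its pseudogene. A gene was read on its brightest probe set by mean signal over the arrays. The floor was 200, the minimum signal 500 and the call 2-fold, or a log2 difference of 1 between responses. Named genes are the 4 genes, called members of the 7 lists or else the largest change, and the 5 most similar genes to each member. Thy1, Lum, Pdgfrb, Krt8, Krt18, Kdr, Bak1, Cox4i2, Mfn2, E2f1 and Map1lc3a were named after their values were seen. The members and lists were chosen with earlier results of these data known. The rule was tested on simulated data. The alternatives were other floors, minimum signals, normalizations and probe set choices. Scripts ran in Python 3.11.15 with pandas 2.3.3, numpy 2.4.6 and matplotlib 3.10.9, and in R 4.3.3 with limma 3.58.1.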

Additional observations from a re-analysis of the deposited data

Results flagged for a closer look

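Some values pointed in opposite directions in the groups compared, and with 1 array per group none of these differences was tested. The genotype difference, tri-CH1 minus wild type, changed sign between oxygen levels for Bnip3, from 0.29 in normoxia to -0.01 in hypoxia on the log2 scale, a difference of -0.31. With quantile normalization the Bnip3 values were 0.24 and 0.11, and with cyclic loess 0.37 and 0.01, so that the sign did not change under either. It did so for Ak4 on probe set 1450387_s_at, from 0.36 to -0.37, a difference of -0.73, and on 1421830_at, from 0.07 to -0.31, a difference of -0.37. For these Ak4 values the wild-type normoxia signal was raised to the floor. With quantile normalization and median scaling both normoxia signals of 1421830_at lay at the floor, and the normoxia difference was 0. Probe set 1416923_a_at of Bnip3l went the other way, from -0.14 to 0.36, a difference of 0.50. The mitophagy receptor Fkbp8 changed by -0.25 with hypoxia in wild type and by 1.08 in tri-CH1, a difference of 1.32, and its genotype difference likewise went from -0.92 in normoxia to 0.40 in hypoxia. That of Foxo3 went from -0.31 to 0.22, a difference of 0.52.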

How the results depend on the processing

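The count of 4 genes risen in each genotype was the same with floors of 100 and 400 or none, minimum signals of 250 and 1000, cyclic loess, quantile normalization, median scaling and the mean over all probe sets. With plain _at probe sets only it was 2 in wild-type cells and 2 in tri-CH1 cells, since Bnip3l and Higd1a have no such probe set. The counts of 0 by genotype and by response were 0 under each of these. Of 150 log2 values of the 4 genes recomputed this way, 137 moved by less than the SD between probe sets and 13 moved by more. Not all of the 137 could have moved. The floors left Bnip3, Bnip3l and Higd1a as they were, since their brightest probe sets had no signal under 400. The probe set choices left Bnip3 as it was. Only the rises with hypoxia had been called, and 0 of these changed sign. Among the values not called, the mean over all probe sets turned the response to 0.46 for Ak4 and 0.16 for Bnip3l. It also turned the genotype difference in hypoxia to 0.46 for Ak4 and 0.27 for Higd1a. Of the 13, 9 came with the mean over all probe sets, where the rise of Ak4 was 1.49 in wild-type cells and 1.95 in tri-CH1 cells, and 3 with a floor of 400, where it was 2.80 and 2.44. Median scaling moved the median log2 change of all genes in the response from 0.03 to 0.18 and in the genotype comparison in normoxia from 0.03 to -0.21, and the share of higher genes among those called from 72.2% to 61.9% in wild-type hypoxia, from 54.7% to 76.4% in the response and from 47.6% to 23.6% by genotype in normoxia. Signals near the floor limit the Ak4 values in normoxia. No paired analysis was possible because each group has 1 array, so that the groups share only 1 replicate number. The genotypes were not used as replicates of each other.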
